A study of Mus musculus with 7 samples.

Results

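The type I interferon response is a set of antiviral genes that cells switch on after interferon alpha or beta binds its receptor. A list of 37 such genes, chosen by pathway, was followed in CD11c-enriched spleen cells of transplanted mice. Their groups were labelled by a normal (wild type) or a weakened (hypomorphic) Atg16l1 gene. The genes were each represented by the probe set with the highest mean over all 7 arrays among those that name that gene alone, which 30 of the 37 genes had, out of 12393 genes so measured on the array. The other 7 (Isg15, Oas1g, Ifi44, Ddx58, Xaf1, Samd9l and Ifi203) had no such probe set and are left out of all counts except those of promoters.

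RNA came from CD11c-enriched splenocytes, prepared with magnetic beads, of mice killed on day 7 after an allogeneic hematopoietic stem cell transplant, in which the donor is genetically different from the recipient. The groups were wild type (C57BL/6J, 4 arrays) and Atg16L1 hypomorphic (C57BL/6J, 3 arrays), and all 7 arrays come from transplanted mice, so no untransplanted baseline is included. The sample labels give an age of 9 weeks at death and the description of the experiment 8 weeks. Atg16l1 encodes a protein that autophagy needs to couple LC3 to membranes, and a hypomorphic allele retains some function. The sources used here do not say whether recipients, donor cells or both carried the allele. Nor do they say how the allele was made or whether each array stands for 1 animal. The p-values therefore measure the spread between these 7 arrays only.

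Values were on a log2 scale, where a difference of 1 is a doubling, with array medians from 5.46 to 5.53. Atg16l1 read 7.42, 7.33, 7.26 and 7.20 on the wild-type and 6.86, 6.76 and 6.94 on the hypomorph arrays, so the groups did not overlap and the log2 change was -0.45 (exact two-sided permutation p = 0.0286, the smallest that 35 ways of dividing 7 arrays can give). In limma its adjusted p was 0.462, and 2.50% of all probe sets were lower without overlap. The CD11c gene Itgax read 7.98 to 8.33 in wild type and 7.98 to 8.48 in the hypomorph, above the upper quartile of its array (7.58 to 7.65) everywhere. Summed linear levels in wild type were 7230 to 8690 for 9 pan dendritic cell genes and 62000 to 69300 for 10 neutrophil genes. For 11 red pulp macrophage genes they were 23600 to 40000, and for 8 T cell genes 2820 to 5260. In the hypomorph these sums ran, in the same order, 7560 to 10500, 39800 to 68500, 34700 to 40400 and 3480 to 4270. The RNA thus came from a mixture of cells, and these sums do not measure shares of cells. Marker lists of other cells differed between arrays, and in bulk RNA fewer cells of a type and less RNA per cell cannot be told apart. For the 8 measured pancreatic acinar genes the list median, as a deviation from the wild-type mean, was -1.94, -0.72, 0.88 and 1.74 on the wild-type arrays and -2.66, -2.63 and -0.73 on the hypomorph ones. The median log2 changes of marker lists (hypomorph minus wild type) were -2.12 for acinar cells, -0.07 for monocytes, 0.25 for red pulp macrophages, -0.47 for neutrophils, 0.05 for T cells, 0.05 for cytotoxic and NK cells, -0.23 for B cells, 0.42 for plasma cells, -1.06 for basophils and mast cells and 0.34 for stroma and endothelium.

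Interferon signals through the receptor chains Ifnar1 and Ifnar2 and the kinases Jak1 and Tyk2 to a complex that holds Stat2 and Irf9, which binds interferon-stimulated response elements in the promoters of target genes. The products degrade viral RNA, block its translation, alter nucleotides or mark proteins with the small modifier Isg15, and others such as Usp18 restrain the receptor. Dendritic cells both make and respond to type I interferon, and in them the response accompanies antigen presentation and activation. The 30 genes thus cover sensors of foreign nucleic acid, transcription factors, effectors and feedback.

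RefSeq promoters (assembly GRCm38.p6, 250 bases before to 50 after the start of transcription) were matched for 28 of the 37 genes. They are shown because the genes are grouped by this shared way of control. The core of the response element was searched as GAAA, any 2 bases and GAAA, or on the other strand TTTC, any 2 bases and TTTC, and overlapping matches were all counted. A match was present in 14 of the 28 genes, against 3.99% of all 27025 genes with a promoter in the table and 3.44% of all promoters. Among the 21 of these genes that also had a probe set of their own, 10 had a match. The gamma-activated site TTCNNNGAA, which reads the same on both strands, was present in 6 of the 28, against 9.55% of all genes. These windows show some of the matches, 5′ to 3′ along the gene, with the cores in capitals and positions counted from the first transcribed base as 0. Ifit1 (chr19:34640760-34640838, plus strand) has cores that begin at -104 and -85, and Ifit3 (chr19:34583348-34583441, plus strand) at -156 and -122. In Isg15 (chr4:156200850-156200921, minus strand) overlapping cores begin between -78 and -66, and in Oas1a (chr5:120907526-120907570, minus strand) at -20 and -14. Rsad2 (chr12:26456538-26456597, minus strand) has 1 core at -120 and Stat2 (chr10:128270251-128270310, plus strand) 1 at -222. The core of Eif2ak2 (chr17:78882535-78882564, minus strand) begins at 18, within the transcribed part.
Ifit1: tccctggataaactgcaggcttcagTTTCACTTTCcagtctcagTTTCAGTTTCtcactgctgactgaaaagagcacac
Ifit3: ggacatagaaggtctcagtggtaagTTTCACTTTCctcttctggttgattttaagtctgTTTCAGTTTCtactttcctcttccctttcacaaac
Isg15: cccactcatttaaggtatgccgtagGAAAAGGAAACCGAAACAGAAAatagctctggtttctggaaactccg
Oas1a: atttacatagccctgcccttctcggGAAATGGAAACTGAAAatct
Rsad2: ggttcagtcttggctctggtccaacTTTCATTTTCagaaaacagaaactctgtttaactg
Stat2: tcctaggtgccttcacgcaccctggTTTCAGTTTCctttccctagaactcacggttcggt
Eif2ak2: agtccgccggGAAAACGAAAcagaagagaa
A match is a description of the letters and not evidence of binding. Ifit2, Isg20, Oasl1, Oasl2, Irf7, Irf9, Cmpk2, Ifi35, Adar, Ube2l6 and Sp100 were in the table with no match of the core in their promoters. The same held for Ifi44, Xaf1 and Samd9l, which had no probe set of their own.

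No interferon response gene separated the genotypes. Of the 30 genes, 14 had a positive and 16 a negative log2 change (hypomorph minus wild type), with a median of -0.01, where the median over all 22625 probe sets tested was 0.00. With limma, run on all probe sets together, 0 of the 30 reached an adjusted p under 0.05, beside 0 of all probe sets (0.0%; 0 to 5 under other limma settings). The smallest adjusted p of the 30 was 0.646 in limma. At an unadjusted p under 0.05 in the same fit 0 genes were higher and 0 lower, beside 4.35% and 3.34% of all probe sets. The groups overlapped for all 30, while they did not overlap for 3.07% of all probe sets in the higher and 2.50% in the lower direction. Changes were small, with a median size of 0.10 against 0.09 over all probe sets, and 26 of 30 lay under 0.25 in either direction.

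For the probe sets used, the intervals give the range of changes that the limma fit allows. The fit takes 1 variance for both groups, although the SD was larger in the hypomorph for 25 of 30 genes. For 27 of 30 genes the 95% confidence interval of the change lay within a doubling or halving, and for 15 within 0.5 on the log2 scale. The exceptions to the first bound were Isg20 (-1.59 to 0.23), Ube2l6 (-1.03 to 0.28) and Rsad2 (-0.89 to 1.06).

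**Figure D1:**
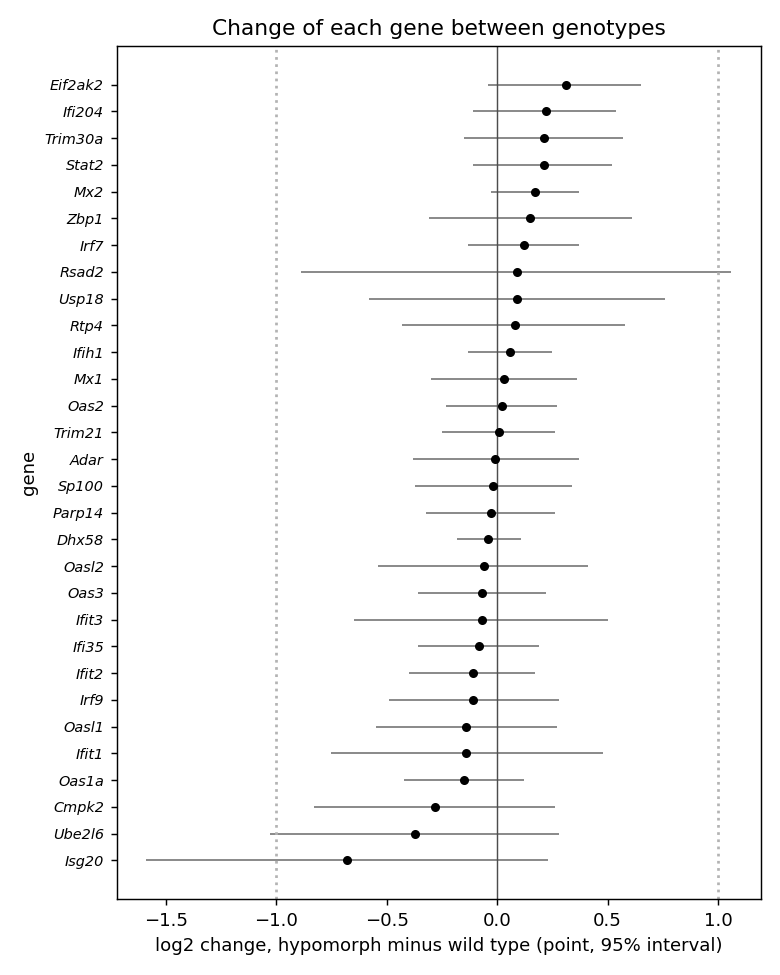
Log2 change of each of the 30 interferon response genes (hypomorph minus wild type), with the 95% confidence interval from the limma fit; dotted lines mark a change of 1 in either direction. Every interval includes 0, and those of Isg20, Ube2l6 and Rsad2 reach past a dotted line.

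What most of the genes shared was a difference among the 3 hypomorph arrays, of widely varying size. Hypomorph replicate 2 read above hypomorph replicate 3 for 29 of 30 genes, Mx2 being the exception, against 43.9% of all probe sets. The median gap was 0.41 on the log2 scale, where over all probe sets it was 0.00. It was close to nil for some genes (0.01 for Mx1 and Ifi204, 0.05 for Stat2) and reached 1.90 for Rsad2. Hypomorph replicate 3 had the lowest value of all 7 arrays for 18 of the 30 genes, against 18.7% of all probe sets, and the highest for 0. Hypomorph replicate 2 had the highest value for 11 genes and hypomorph replicate 1 for 9, beside 12.4% and 16.5% of all probe sets. The SD was larger in the hypomorph for 25 of 30 genes (51.9% of all probe sets), with a median SD of 0.295 (n = 3) against 0.160 in wild type (n = 4). Over all probe sets the median SDs were 0.125 and 0.120. All probe sets include dim ones, whereas 0 of the 30 genes had a mean below the mean lower quartile of the arrays. These are descriptions of single arrays, for which there is no replicate and no test.

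The sign of the group's median depended on which hypomorph arrays were included. Relative to the wild-type mean, the median of the 30 genes was 0.02, -0.03, -0.04 and 0.06 on the wild-type arrays and 0.03, 0.16 and -0.26 on the hypomorph arrays. Without hypomorph replicate 3, 25 of the 30 changes were positive, with a median of 0.11. In that fit Rtp4, Eif2ak2, Rsad2, Irf7 and Usp18 were higher at an unadjusted p under 0.05, with log2 changes from 0.25 to 0.66 and limma adjusted p from 0.378 to 0.734. These 5 of 30 stand beside 3.22% of all probe sets called higher in that fit, and the 0 lower beside 3.26%. Leaving out replicate 3, the lowest array for 18 of the 30 genes, raises their changes by construction, so these calls are a description only. Without hypomorph replicate 2, 21 were negative and the median was -0.13. There Isg20, Oas1a, Ifi35 and Ube2l6 were lower (-1.17 to -0.22) and Mx2 higher (0.23) at an unadjusted p under 0.05, with limma adjusted p of 0.153 and more. In that fit 6.97% of all probe sets were called lower and 6.24% higher. Leaving out replicate 2, the highest hypomorph array for Isg20, Oas1a, Ifi35 and Ube2l6 and the lowest for Mx2, moves these changes by construction. These calls too are a description only. Without hypomorph replicate 1, 20 were negative, with a median of -0.07.

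**Figure D2:**
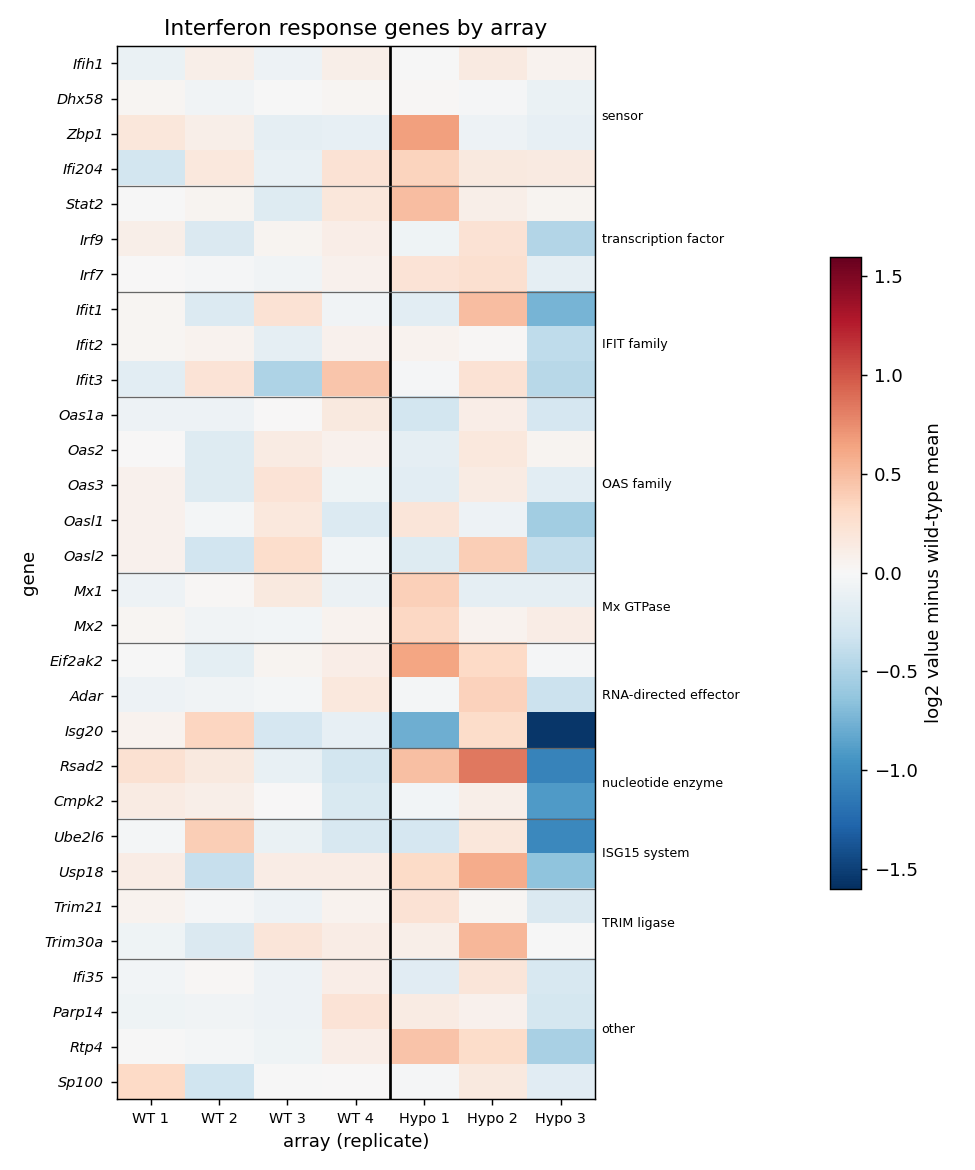
Log2 value of each of the 30 genes on each array minus the mean of the 4 wild-type arrays, ordered by role, with blue below and red above that mean. The column of hypomorph replicate 3 is mostly blue, that of replicate 2 mostly pale to red, and replicate 1 is red for genes such as Zbp1, Eif2ak2 and Stat2.

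The sensors recognise nucleic acids of viruses in the cytosol. Ifih1, which encodes the long double-stranded RNA sensor MDA5, read 8.71, 8.90, 8.73 and 8.91 on the wild-type and 8.80, 8.96 and 8.87 on the hypomorph arrays. It was among the steadiest genes, with a change of 0.06 (95% confidence interval -0.13 to 0.25). Zbp1, a sensor of left-handed nucleic acids that can start necroptosis, read 8.08, 7.99, 7.76 and 7.77 on the wild-type and 8.56, 7.82 and 7.77 on the hypomorph arrays. Only hypomorph replicate 1 lay above the wild-type arrays, and the change was 0.15 (-0.31 to 0.61). Ifi204, a member of the DNA-binding HIN-200 family, read 7.42, 7.88, 7.59 and 7.94 on the wild-type and 8.07, 7.86 and 7.85 on the hypomorph arrays, a change of 0.22 (-0.11 to 0.54). Its hypomorph values lay within or just above the wild-type range. Dhx58, which encodes LGP2, a relative of MDA5 without signalling domains, stayed between 6.80 and 6.93 on all arrays.

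Among the transcription factors, Stat2 and Irf9 form the complex that binds the response element, and Irf7 amplifies the interferon genes themselves. Stat2 read 6.08, 6.13, 5.88 and 6.27 on the wild-type and 6.58, 6.18 and 6.13 on the hypomorph arrays, with replicate 1 alone above the wild-type range. Its change was 0.21 (-0.11 to 0.52). A dimmer probe set of Stat2 gave a change of 0.50 (unadjusted p = 0.0386, adjusted p = 0.644 in limma), again with hypomorph replicate 1 highest, at 5.18. Irf9 read 8.01, 7.68, 7.96 and 8.02 on the wild-type and 7.85, 8.15 and 7.45 on the hypomorph arrays, so that the hypomorph arrays enclosed the wild-type ones. Irf7 read 7.55, 7.53, 7.49 and 7.62 on the wild-type and 7.77, 7.81 and 7.41 on the hypomorph arrays. Hypomorph replicates 1 and 2 were above and replicate 3 was below every wild-type array for this gene, and the change of 0.12 (-0.13 to 0.37) averaged over both.

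The IFIT proteins bind viral RNA and block its translation, and none of their 3 genes differed between genotypes beyond its spread. Ifit1 read 6.37, 6.12, 6.56 and 6.28 on the wild-type and 6.17, 6.83 and 5.59 on the hypomorph arrays. Replicate 2 was the highest and replicate 3 the lowest of the 7 arrays, 2.36-fold apart, while the group means were 6.33 ± 0.184 (SD, n = 4) and 6.20 ± 0.621 (SD, n = 3). Ifit2 read 7.63, 7.65, 7.45 and 7.66 on the wild-type and 7.65, 7.61 and 7.19 on the hypomorph arrays, where only replicate 3 stood apart. Ifit3 varied within wild type, from 6.33 to 7.27, more than in the hypomorph, from 6.38 to 7.06.

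The OAS enzymes make a short adenylate that activates RNase L, and Oasl1 and Oasl2 are relatives of these enzymes. Oas1a read 9.08, 9.08, 9.16 and 9.32 on the wild-type and 8.87, 9.27 and 8.89 on the hypomorph arrays, a change of -0.15 (-0.42 to 0.12). Hypomorph replicates 1 and 3 were below all wild-type arrays and replicate 2 within them. Oasl1, a repressor of Irf7 translation, read 6.37, 6.28, 6.48 and 6.09 on the wild-type and 6.50, 6.23 and 5.75 on the hypomorph arrays. Oas2, Oas3 and Oasl2 had changes of 0.02, -0.07 and -0.06. Within the family, hypomorph replicate 1 was among the 3 lowest arrays for Oas1a, Oas2, Oas3 and Oasl2, and the highest for Oasl1.

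Mx1 and Mx2 belong to a family of dynamin-like GTPases that trap viral particles. The Mx1 gene of C57BL/6 mice carries a deletion that leaves no working protein, and whether Mx2 makes one was not examined. Mx1 read 7.05, 7.14, 7.28 and 7.03 on the wild-type and 7.50, 6.98 and 6.98 on the hypomorph arrays. Mx2 read 4.40, 4.31, 4.32 and 4.42 on the wild-type and 4.70, 4.42 and 4.48 on the hypomorph arrays, with a change of 0.17 (-0.03 to 0.37) and an unadjusted p = 0.0804 in limma, the second smallest of the 30. Hypomorph replicate 1 was the highest array for both.

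Of the effectors that act on RNA, Eif2ak2 had the smallest p of the 30 genes. It encodes PKR, a kinase that halts translation when it binds double-stranded RNA, and read 7.42, 7.27, 7.47 and 7.53 on the wild-type and 8.05, 7.74 and 7.40 on the hypomorph arrays. The change was 0.31 (-0.04 to 0.65; limma unadjusted p = 0.0726, adjusted p = 0.646), with 2 of 3 hypomorph arrays above wild type. Its other probe set did not show this order, reading 5.48, 5.36, 5.36 and 5.36 on the wild-type and 5.19, 5.18 and 5.89 on the hypomorph arrays. Adar, which edits double-stranded RNA, had a change of -0.01, with hypomorph replicate 2 the highest (6.65) and replicate 3 the lowest (5.93) of all arrays.

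Isg20, an exonuclease that degrades single-stranded RNA, had the largest change of the list. It read 8.67, 8.96, 8.34 and 8.48 on the wild-type and 7.83, 8.91 and 7.06 on the hypomorph arrays, a change of -0.68 (-1.59 to 0.23; limma adjusted p = 0.669). Hypomorph replicates 1 and 3 were below every wild-type array, and replicate 2 was within the wild-type range. The change was -0.25 without hypomorph replicate 3 and -1.17 without replicate 2.

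Rsad2 and Cmpk2 are neighbouring genes whose products act together on nucleotides. Rsad2 encodes viperin, which makes a chain-terminating nucleotide, and read 9.04, 8.95, 8.68 and 8.50 on the wild-type and 9.28, 9.63 and 7.72 on the hypomorph arrays. Hypomorph replicates 1 and 2 were above and replicate 3 below all wild-type arrays, and replicate 2 read 3.74-fold above replicate 3. The other 2 probe sets of Rsad2 put the same arrays 3.51-fold and 3.41-fold apart, so this gap did not depend on 1 probe set. Cmpk2, a mitochondrial nucleotide kinase, read 7.67, 7.64, 7.55 and 7.30 on the wild-type and 7.50, 7.64 and 6.64 on the hypomorph arrays. Its second, dimmer probe set had the opposite sign, with a change of 0.21 (limma unadjusted p = 0.0429, adjusted p = 0.644) against -0.28.

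Isg15 is attached to other proteins by enzymes that include Ube2l6 and is removed by Usp18. The probe set that detects Isg15 is also annotated to the pseudogene Gm9706 and so is outside the counts. It read 6.61, 6.68, 6.47 and 6.45 on the wild-type and 6.62, 7.11 and 5.99 on the hypomorph arrays, a change of 0.02 (-0.52 to 0.57), with the same high replicate 2 and low replicate 3. Ube2l6 read 5.81, 6.24, 5.74 and 5.59 on the wild-type and 5.57, 6.03 and 4.81 on the hypomorph arrays, a change of -0.37. Hypomorph replicate 3 was lowest, 2.33-fold below replicate 2. Usp18 was described in full because of its spread, seen in the data, and read 6.94, 6.45, 6.94 and 6.94 on the wild-type and 7.13, 7.41 and 6.17 on the hypomorph arrays. The group means of Usp18, 6.82 and 6.90, were nearly equal although its hypomorph arrays lay on both sides of wild type.

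The remaining genes are ligases and regulators. Trim30a, which restrains NF-kB signalling, read 9.30, 9.14, 9.56 and 9.49 on the wild-type and 9.47, 9.91 and 9.37 on the hypomorph arrays, and Trim21, an antibody receptor of the cytosol, had a change of 0.01. Ifi35, an interferon-induced leucine zipper protein, read 7.88, 7.95, 7.85 and 8.03 on the wild-type and 7.74, 8.12 and 7.67 on the hypomorph arrays, again with replicate 2 above and the others below all wild-type arrays. Rtp4, a chaperone of membrane receptors, stayed between 9.19 and 9.37 in wild type but read 9.72, 9.55 and 8.74 in the hypomorph. Its dimmer probe set did not have this gap, with 4.37, 3.96 and 4.02 on the hypomorph arrays. Parp14, an ADP-ribosyltransferase, and Sp100, a nuclear body protein, had changes of -0.03 and -0.02. In all, 9 genes had several probe sets, and 2 of the 11 further probe sets had a sign opposite to the one used. Hypomorph replicate 2 was above replicate 3 in 8 of the 11, the exceptions belonging to Rtp4, Eif2ak2 and Dhx58.

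**Figure D3:**
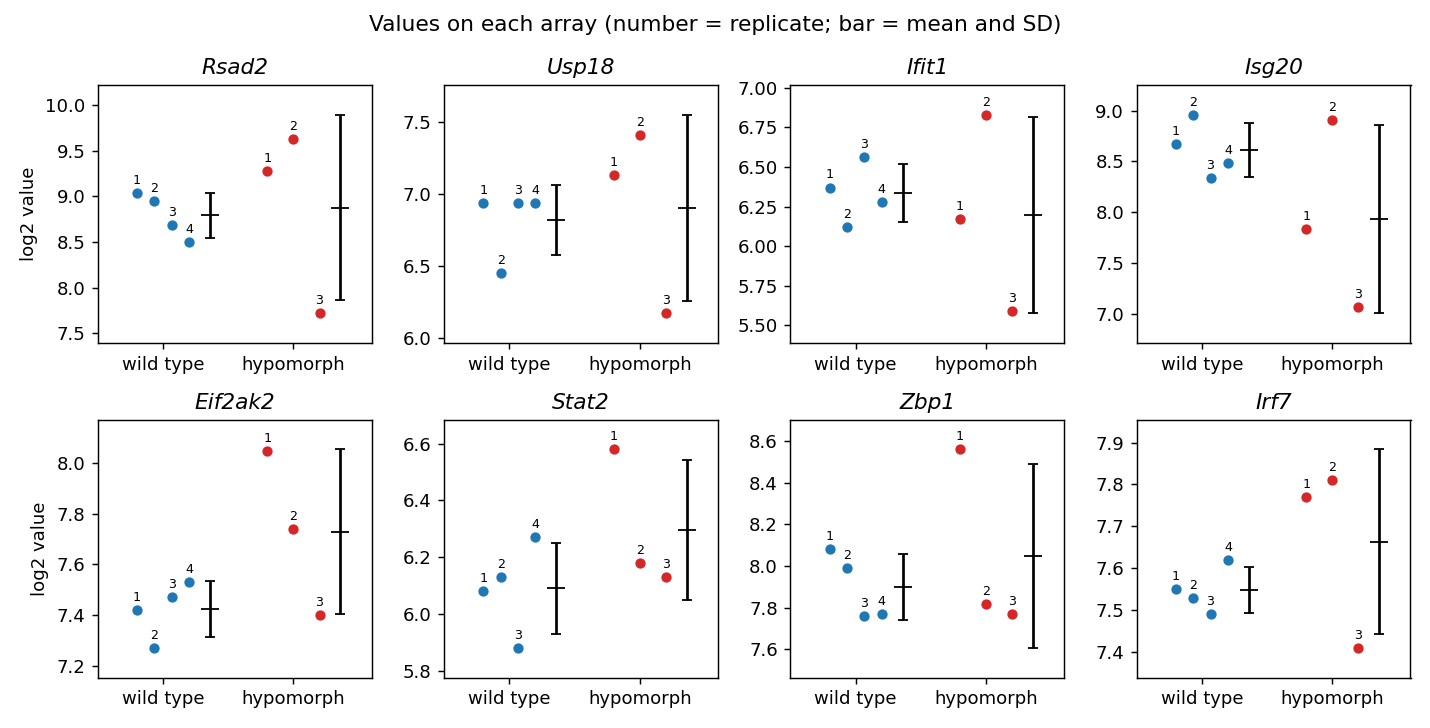
Log2 values of 8 interferon response genes on the 4 wild-type (blue) and 3 hypomorph (red) arrays, numbered by replicate, with the mean and SD of each group in black; each panel has its own axis. Rsad2, Usp18, Ifit1 and Isg20 have replicate 2 as the highest and replicate 3 as the lowest hypomorph array, and Eif2ak2, Stat2 and Zbp1 have replicate 1 as the highest.

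The genes did not all follow 1 pattern across arrays. Over the 7 arrays the mean Pearson r between pairs of the 30 genes was 0.351, against 0.0058 between all pairs of the 12393 genes, and without hypomorph replicate 3 it was 0.138 against 0.00784. Rsad2, Usp18 and Rtp4 followed the mean of the other genes most closely (r of 0.909, 0.908 and 0.900), and Oas2, Mx2 and Ifi204 least (0.0523, 0.0456 and 0.0357). Outside all lists, the genes most like the mean of the 30, by Pearson r over 7 arrays among 12164 genes, were Mrpl21, Ilkap, Slc19a3, Utp25, Adnp2, Rapgef6, Lrrc8c, Zfp101, Ola1 and Nrip3 (r of 0.960 to 0.990). For all 10, hypomorph replicate 2 was the highest and replicate 3 the lowest array, which follows from choosing them by likeness to that mean. Some hardly varied in wild type (SD of 0.00353 for Ilkap), so their r rests on the hypomorph arrays. Slc19a3 read 2.68 to 3.10, below the lower quartiles of the arrays (3.31 to 3.39). These correlations are over arrays that share genotype labels and a normalization and are given as descriptions. The 12393 genes include dim ones, unlike the 30, so they are not a matched background.

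Upstream of these genes, transcripts of the interferons read near the bottom of the scale. Ifnb1 read 2.83 to 3.24 in wild type and 2.87 to 3.14 in the hypomorph, and Ifna1, Ifna2 and Ifna4 read at most 3.62 on any array, against lower quartiles of the arrays of 3.31 to 3.39, so the arrays say little about them. Of 25 measured upstream genes, 15 had a positive and 10 a negative change, with a median of 0.06, and 0 passed the adjusted threshold in limma. Only 5 of the 25 were higher in hypomorph replicate 2 than in replicate 3. The receptor chains Ifnar1 and Ifnar2 had changes of -0.02 and 0.13, and the kinases Jak1 and Tyk2 0.06 and -0.04. The sensors and adaptors Tlr3, Tlr7, Tlr9, Myd88, Mavs, Tmem173 (STING), Tbk1 and Ikbke ran from -0.14 to 0.23. The regulatory factors Irf1, Irf2, Irf3 and Irf8 ran from -0.13 to 0.21, and the phosphatases Ptpn6 and Ptpn11 had changes of -0.04 and -0.09. Of the 12 upstream genes with several probe sets, 5 had the opposite sign in the second (Ifnar2, Irf3, Jak1, Ptpn11 and Tlr3). The second probe set of Ptpn11 gave 0.53 (unadjusted p = 0.00288, adjusted p = 0.644 in limma), so the direction for this gene depended on the probe set.

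The upstream genes with the smallest p were Irf5 and Socs3, both higher at an unadjusted p under 0.05, 2 of 25 beside 4.35% of all probe sets. Irf5, a factor downstream of Toll-like receptors, read 7.66, 7.65, 7.85 and 7.66 on the wild-type and 8.59, 7.72 and 8.24 on the hypomorph arrays (change 0.48, limma adjusted p = 0.644). Its second probe set gave a change of 0.10 and an unadjusted p of 0.225 in limma, and the mean over its probe sets 0.29. Socs3, which mainly restrains signalling through gp130, read 9.72, 9.47, 9.81 and 9.25 on the wild-type and 10.34, 9.62 and 10.42 on the hypomorph arrays (change 0.57, limma adjusted p = 0.644), and its second probe set gave 0.54. Both had hypomorph replicate 2 as the lowest hypomorph array and within the wild-type range, opposite to most of the 30 genes. Socs1, the feedback inhibitor of interferon receptors, had a change of 0.10.

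Other interferon-induced genes, a list of 37 measured genes with none of the 30, gave a median change of 0.02 with 20 positive and 17 negative. None was called at an unadjusted p under 0.05 in limma, in either direction. Its members with the smallest p were Ms4a6d (0.54), Pml (-0.23), Trim25 (0.40) and Bst2 (0.23). The gap between hypomorph replicates 2 and 3 was smaller than in the 30 genes, with 21 of 37 genes higher in replicate 2 and a median gap of 0.14. The difference between these lists was not tested.

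Genes of the interferon gamma response, which T cells and NK cells set off through another receptor, had a median change of 0.11 with 22 of 28 positive and 0 called at an unadjusted p under 0.05. They stood out on hypomorph replicate 1, with a list median of 0.51 relative to the wild-type mean against -0.09 and -0.11 on the other hypomorph arrays. Of the 28, 26 had their highest hypomorph value on replicate 1, against 35.7% of all probe sets. Cd274, which encodes PD-L1, read 9.98, 8.51 and 9.07 in the hypomorph and 8.26 to 8.70 in wild type (change 0.69). The others of smallest p were Fcgr1, Socs1 and Psmb9, with changes of 0.48, 0.10 and -0.11. Hypomorph replicate 1 was also the highest array for 9 of the 30 type I genes, among them Zbp1, Eif2ak2, Stat2, Mx1 and Mx2.

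Erythroid and cell cycle genes were also lower on hypomorph replicate 3 than on replicate 2. The 8 measured erythroid genes had a median change of -0.70 and list medians of 0.10, 0.37, -0.29 and -0.19 on the wild-type arrays and -0.57, 0.32 and -1.79 on the hypomorph arrays, and 7 of 8 were higher in hypomorph replicate 2 than in replicate 3. Their summed linear level ran from 5270 to 8590 in wild type and from 2310 to 7020 in the hypomorph. All 14 cell cycle genes had a negative change (median -0.40), 6 of them at an unadjusted p under 0.05 in limma (3.34% of all probe sets in this direction) and 0 at the adjusted threshold. All 14 were higher in hypomorph replicate 2 than in replicate 3, with list medians of -0.42, 0.03 and -0.66 on the hypomorph arrays and -0.10 to 0.11 in wild type. Their summed level ran from 11400 to 12900 in wild type and from 7420 to 12100 in the hypomorph. The erythroid factor Klf1 read 6.92 to 9.68, and the probe set of Hba-a1, a globin named after its values were seen, 3.12 to 3.27. Of the lymphocyte lists, 7 of 8 cytotoxic and NK cell genes and 6 of 8 T cell genes were higher in hypomorph replicate 2 than in replicate 3, with median gaps of 0.34 and 0.30. Other lists ran the opposite way, with 1 of 7 B cell genes and 0 of 10 neutrophil genes higher in replicate 2 and median gaps of -0.42 and -0.61. The part of any of these cells in the pattern of the 30 genes was not tested.

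For dendritic cell markers the list median gaps between these arrays were smaller in size, though single markers had larger ones (0.61 for Zbtb46, -0.83 for Klra17). The 9 pan dendritic cell genes had a median change of -0.06, with list medians of -0.22 to 0.08 on the wild-type and -0.03, -0.09 and -0.11 on the hypomorph arrays, and 7 of 9 were higher in hypomorph replicate 2 than in replicate 3, with a median gap of 0.08. The 11 genes of plasmacytoid dendritic cells, the main interferon producers, had a median change of -0.10, with 4 positive and 7 negative. Hypomorph replicate 2 was above replicate 3 for 2 of the 11, with a median gap of -0.21. Among the 11 genes, Ly6d and Spib were lower without overlap (changes of -0.52 each, limma adjusted p = 0.549 and 0.644). These are 2 of 11 beside 2.50% of all probe sets, and B cells also express both. Bst2, which is both a marker of these cells and interferon-induced, had a change of 0.23. Irf8, Tlr7 and Tlr9 count both in this list and among the upstream genes.

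**Figure D4:**
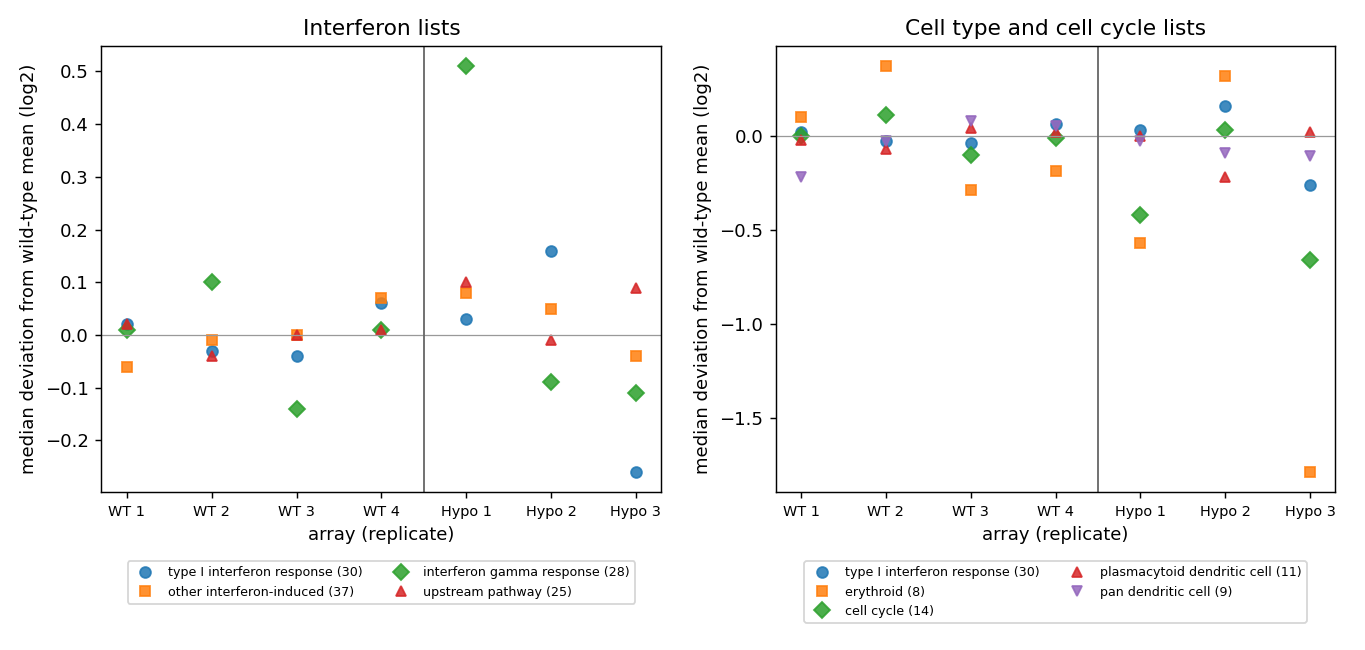
Median over each list of the log2 value minus the wild-type mean, on each array, with the number of measured genes in brackets; left, interferon lists, and right, cell type and cell cycle lists, with the 30 interferon response genes as circles in both. The 30 genes read 0.16 on hypomorph replicate 2 and -0.26 on replicate 3, the interferon gamma list 0.51 on replicate 1, and the erythroid list -1.79 on replicate 3.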

How the data were processed

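The deposited table holds log2 values of probe sets on Affymetrix Mouse430A arrays, which the authors made with Affymetrix Power Tools per the submitters' processing notes. Of the software version, summary method, background correction and normalization, nothing is given in the sources used here. Values were used as deposited. Of 22690 probe sets, 64 controls and 1 without values were left out. Probe sets were named through the platform annotation, updated by Entrez identifier in RefSeq tables (GRCm38.p6): 20379 named 1 gene (20350 found in the table), 691 several and 1555 none. The genotype comparison used lmFit and eBayes of limma (version 3.58.1, R 4.3.3) with 2 group means, with Benjamini-Hochberg adjustment over all 22625 probe sets and a threshold of 0.05. The limma step was tested on simulated data.

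The genes, lists and tests were chosen with earlier results of these data known. All 30 genes were to be named, and values on every array given for up to 8 in each direction with the smallest p and for Isg15, Ifit1, Mx1, Irf7, Irf9 and Stat2. Rsad2, Usp18 and Rtp4 were added after their values were seen. All 25 upstream genes were named, up to 4 of smallest p in the other lists (Hba-a1 and Itgax were added), and the 10 genes most like the mean of the 30. The 3 pathway lists and 14 cell type or cell cycle lists are described by counts and medians, with no test of a list. Alternatives covered variance model, array weights, scaling, offset, dim filter, probe set choice, replicate block, single arrays and, added after seeing the data, the acinar-rich arrays.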

Additional observations from a re-analysis of the deposited data

Results flagged for a closer look

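In 4 wild-type arrays, 1 value can lie far from the other 3, and 5 of the 56 genes checked (the 30 interferon response genes, 25 upstream genes and Atg16l1) had such a value by Dixon's test, which chance gives in about 1 of 20 groups. Ifit2 read 7.45 on wild-type replicate 3 against 7.63 to 7.66 on the others. Usp18 read 6.45 on wild-type replicate 2 against 6.94 on each of the others, Parp14 8.64 on replicate 4 against 8.34 to 8.37, Ifnb1 3.24 on replicate 1 against 2.83 to 2.88, and Irf5 7.85 on replicate 3 against 7.65 to 7.66. The hypomorph group, with 3 arrays, is too small for this test, so the low values of its replicate 3 are given in the text above as values.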

How the results depend on the processing

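No interferon response gene passed an adjusted p of 0.05 under any alternative run, and the median change of the 30 genes ran from -0.13 to 0.11, both ends from leaving out 1 hypomorph array. Probe sets past the adjusted threshold numbered 5 with trend and robust variance, with median centring and with dim probe sets left out, 3 with array weights, and 0 to 2 with 1 array left out. Genes higher at an unadjusted p under 0.05 numbered 2 with array weights (Eif2ak2 and Mx2, beside 4.50% of all probe sets). They numbered 1 with the mean over probe sets (Eif2ak2, beside 3.86% of all genes). With the second probe set, which 9 of the 30 genes have, they numbered 2 (Stat2 and Cmpk2, beside 4.35% of all probe sets). With 1 array left out 0 to 5 were higher (2.64% to 6.24% of all probe sets) and 0 to 4 lower (1.90% to 6.97%). Deviations from the group means of same-numbered arrays correlated at r of 0.102, 0.098 and 0.339, and 1 of 3 hypomorph arrays correlated best with its own number, so the numbers were not taken as pairs. With the replicate block 2 genes were lower (Isg20 and Ube2l6; 4.05% of all probe sets), and the median was 0.01. Without the acinar-rich wild-type replicates 3 and 4, a setting chosen after seeing the data, the median was 0.01 with 0 genes called either way. In that fit 3.42% of all probe sets were called higher and 2.22% lower. Signs are not firm: 11 of 30 turned without hypomorph replicate 3, 8 without replicate 1 and 5 without replicate 2. The number of arrays and the unknown normalization limit the precision.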
